A study of Saccharomyces cerevisiae with 7 samples.

Results

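The exhaustion of glucose was captured between a pair of neighbouring arrays of a yeast time course, at 15.5 h, when the medium still held 7.5 g/L glucose, and at 18.5 h, when it held 0.2 g/L. The quantity described below is the step, which is the log2 ratio of a gene at 18.5 h minus its log2 ratio at 15.5 h, after each array was centred on its median and the spots of one gene were averaged. All genes with a value on both arrays were taken. They were 5397 of the 5470 genes named on the arrays, and 73 genes were left out for a blank on either array.

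The series followed Saccharomyces cerevisiae, budding yeast, through growth on glucose with 7 arrays of 2 channels, 1 array for each time point. Channel 1 of every array held one common reference, total RNA of a culture labelled 0.14 OD with 19 g/L glucose, and channel 2 held the culture at its own time (OD, the optical density, measures how dense a culture is). The culture stood at 3.7 OD at 15.5 h and at 6.9 OD at 18.5 h. Before the step it stood at 1.8 OD with 14.0 g/L glucose at 13.5 h, and after it at 7.3 OD with 0 g/L at 20.5 h. The earlier arrays held the culture at 0.14 OD with 19 g/L at 0 h, at 0.46 OD with 18.7 g/L at 9.5 h and at 0.80 OD with 17.6 g/L at 11.5 h. The labels name no strain and do not say whether 1 flask or several were sampled. The labels give every array a different lot, so that a change of lot and a change of time cannot be told apart. Time, density and glucose also moved together. With 1 array a side there is no replicate error, and no p-value is given.

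While glucose lasts, yeast ferments it to ethanol and represses the genes of respiration and of other carbon sources. When glucose runs out, the protein kinase Snf1 is known to lift that repression, and the cells turn to respiring the ethanol they have made, a passage called the diauxic shift. Lower activity of the TOR and protein kinase A pathways is known to turn down the genes for making ribosomes and to turn on stress genes through the transcription factors Msn2 and Msn4.

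Ratios are read as channel 2 over channel 1. That direction is likely but not certain, because the labels name the channels and not the dyes. With the base taken as log2, a value of 1 is 2-fold above the reference and a step of 1 is a 2-fold increase relative to the median probe. The table holds ratios without signal levels, so the brightness behind a value is unknown and the number of arrays limits the precision. For the 75 genes with several spots, spots of the same gene had an SD of 0.34 on the 15.5 h array, 0.45 on the 18.5 h array and 0.52 for the step, or 0.48 for the step without PTK1, whose spots gave -0.30 and 2.18. The mean step was past 2-fold for 15 of these genes. All 15 had every spot on the same side of 0, and 7 had every spot past 2-fold. The other genes rest on 1 spot an array, so a lone step near 1 is not far outside the spread between spots.

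The step split the genome about evenly between higher and lower. At 18.5 h 530 genes (9.82%) were at least 2-fold higher than at 15.5 h and 487 (9.02%) were at least 2-fold lower, together 18.8% of the genes. The counts given below for gene lists are to be read against these shares. The median step was -0.00, the 5th and 95th percentiles were -1.28 and 1.37, and the SD over genes widened from 0.52 at 15.5 h to 0.92 at 18.5 h. The increases had the longer tail, with 83 genes at least 4-fold higher and 25 at least 4-fold lower, and with 21 against 0 at 8-fold. Of these, 15 of the 83 and 10 of the 21 had a 15.5 h value at or below -1.5 and at least 2-fold under their 13.5 h value. The even split depends on centring. In the values as deposited the median of the 18.5 h array stood 0.249 above that of the 15.5 h array, and the split was then 876 higher against 287 lower, or 75.3% higher in place of 52.1%. Taking the 13.5 h array as a further baseline gave fewer increases, since 312 of the 518 higher genes with a value at 13.5 h were also 2-fold above that array, against 384 of 482 lower genes. A limit of 3-fold left 175 higher and 133 lower genes.

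**Figure D1:**
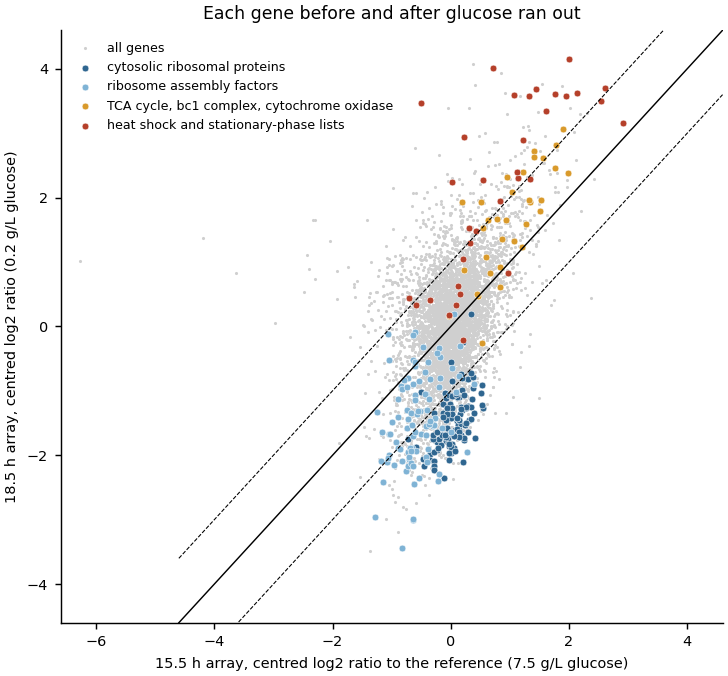
Each point is a gene, with its centred log2 ratio to the reference at 15.5 h across and at 18.5 h upwards. The solid line marks no step, the dashed lines mark a 2-fold step, and colours mark 4 groups of gene lists. Cytosolic ribosomal proteins lie near 0 across and mostly between -1 and -2 upwards, while a scatter of grey points lies far to the left, with low values at 15.5 h.

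Before the step 94.5% of all genes stood within 2-fold of the reference and 46.6% within 0.25 of it on the log2 scale. Of the 530 higher genes, 418 were within 2-fold of the reference at 15.5 h, 47 were already at least 2-fold above it and 65 were at least 2-fold below it. At 18.5 h 319 of them were at least 2-fold above the reference. Of the 487 lower genes, 467 had been within 2-fold of the reference, 6 already at least 2-fold below and 14 at least 2-fold above. At 18.5 h 397 of them were at least 2-fold below the reference. Within 0.25 of the reference at 15.5 h were 136 of the higher and 221 of the lower genes. From that level the largest steps up were those of MPC3 (YGR243W), a subunit of the mitochondrial pyruvate carrier, from -0.04 to 3.39, and NRG1 (YDR043C), a repressor of glucose-repressed genes, from -0.20 to 2.66. VVS1 (YBR241C), HSP31 and UBX5 (YDR330W) followed with steps of 2.72, 2.71 and 2.42. The largest steps down from that level were those of AQR1 (YNL065W), a plasma membrane exporter, from 0.04 to -2.36, and of the ribosomal protein gene RPL8B (YLL045C), from 0.20 to -2.11. INA1 (YLR413W), which began below that range, was also among the 15 lowest steps, from -0.37 to -2.61.

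Genes for the ribosome itself were nearly all lower. Of 65 measured genes for large-subunit ribosomal proteins 61 were at least 2-fold lower and 0 higher, and of 48 for the small subunit 43 were lower and 0 higher, against 9.02% lower over all genes. The median of the large-subunit genes moved from 0.02 to -1.59, with a median step of -1.58 and the middle members between -1.70 and -1.37. The small-subunit genes went from a median of 0.10 to -1.43, a step of -1.53. At 15.5 h, with 7.5 g/L glucose left, these genes therefore still stood at the level of the reference culture. In bulk RNA fewer cells expressing a gene and less RNA per cell cannot be told apart, and many ribosomal protein genes have near-identical copies whose spots may share signal.

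RPL8B had the lowest step of its list. Its values over the 7 arrays were 0.24, -0.07, -0.19, 0.11, 0.20, -2.11 and -2.88, so the first 5 arrays were all within 0.25 of the reference and the last pair both far below it. RPS7B (YNL096C) had 0.19, 0.04, -0.43, -0.29, -0.12, -2.36 and -2.38, with the same gap between the fifth and sixth arrays. RPL17A, whose step was -0.15, was the member closest to 0. The other large-subunit genes short of 2-fold were RPL43A at -0.56, RPL9B at -0.87 and RPL31B at -0.95. For the small subunit they were RPS8A at -0.45, RPS11A at -0.51, RPS16B at -0.77, RPS27B at -0.92 and RPS12 at -0.99. Several of these were lower on the following array. At 20.5 h RPL43A stood at -1.79, RPS8A at -1.74 and RPS11A at -2.07, while RPL17A stood at 0.03.

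The 5 acidic proteins of the ribosomal stalk, which recruits elongation factors, had a median step of -1.06. RPP0, the stalk's base, had a step of -1.77 and reached -1.96. RPP1B and RPP2B had steps of -1.07 and -1.06, and RPP1A and RPP2A stayed short of 2-fold at -0.88 and -0.56. At 20.5 h the list's median was -2.08, and all 5 genes were further below the reference than at 18.5 h.

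Factors that build ribosomes stood under the reference at 15.5 h and further under it at 18.5 h. The list for the small-subunit processome and nucleolar RNA particles, which process the precursor of the small-subunit RNA, went from a median of -0.61 to one of -1.53. Its 45 measured genes held 23 that were at least 2-fold lower and 0 higher. The 50 large-subunit assembly factors went from -0.63 to -1.51, with 19 lower and 0 higher. The size of these median steps depended on the scaling, since -1.02 and -0.88 became -0.17 and -0.27 under quantile normalization, which gives both arrays one spread. UTP10 (YJL109C), a processome subunit, had the lowest step of these lists, from -0.83 to -3.43. DIP2 (YLR129W), also of the processome, went from -0.63 to -3.01, and RLP7 (YNL002C), a ribosomal-like protein of large-subunit assembly, from -0.64 to -2.99. NHP2 (YDL208W), a core protein of the particles that modify ribosomal RNA, went from -0.22 to -2.40. Against the median stood DBP7, an RNA helicase of large-subunit assembly, at 0.93, and DBP8, a helicase of small-subunit assembly, at 0.52, both short of 2-fold. NOP2 (YNL061W), an RNA methyltransferase of large-subunit assembly, went from -1.15 to -2.41 and stood at 0.22 at 20.5 h.

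Among the lower genes 6 had already been at least 2-fold below the reference at 15.5 h, and they were named after their values were seen. UTP15, NOP2, HAS1 and RRP12 act in ribosome assembly, DPH2 makes the modified histidine of elongation factor EF2, and AAH1 is an adenine deaminase. RRP12 was the lowest of them, with -1.01, -1.37, -3.49 and -3.01 on the last 4 arrays. AAH1 went from -1.10 to -2.99.

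Genes of translation were lower as well. Among 20 cytosolic aminoacyl-tRNA synthetase genes, whose enzymes load amino acids onto tRNA, 15 were at least 2-fold lower and 0 higher, and the list's median went from -0.19 to -1.30. MES1 (YGR264C), for methionine, had 0.50, 0.40, -0.10, -0.56, -0.58, -2.74 and -1.96 over the 7 arrays, with its lowest value at 18.5 h. YHR020W, the prolyl-tRNA synthetase gene, went from 1.06 to -1.10 and back to 0.51 at 20.5 h. The 5 short of 2-fold were GUS1 at -0.62, FRS2 at -0.59, GLN4 at -0.45, DPS1 at -0.28 and TYS1 at -0.17. Of 39 translation factor genes 11 were lower and 0 higher, with a median step of -0.77. The elongation factor genes TEF4, YEF3 and EFT1 led them at -1.87, -1.81 and -1.72, and EFT1 has a near-identical copy in EFT2. DED1, a helicase of translation initiation, was the highest of the list at 0.55.

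Subunits of RNA polymerases I and III, which transcribe ribosomal RNA and tRNA, had smaller steps than the ribosomal proteins. Of 19 genes 5 were at least 2-fold lower and 0 higher, and the median step was -0.43. RPC34 was the lowest at -1.43 and RPC82 the highest at 0.67. For RNA polymerase II 1 of 11 genes was lower, or 9.09%, near the 9.02% over all genes, and the median step was -0.47. Among 14 regulators of ribosomal genes 7.14% were lower, below the share over all genes, which was 1 gene. This was RAP1, which binds the promoters of ribosomal protein genes, at -1.82, from -0.49 to -2.30, and it stood at -0.85 at 20.5 h. IFH1, the coactivator at the same promoters, had a step of -0.97 and the repressor gene TOD6 a step of 0.41.

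**Figure D2:**
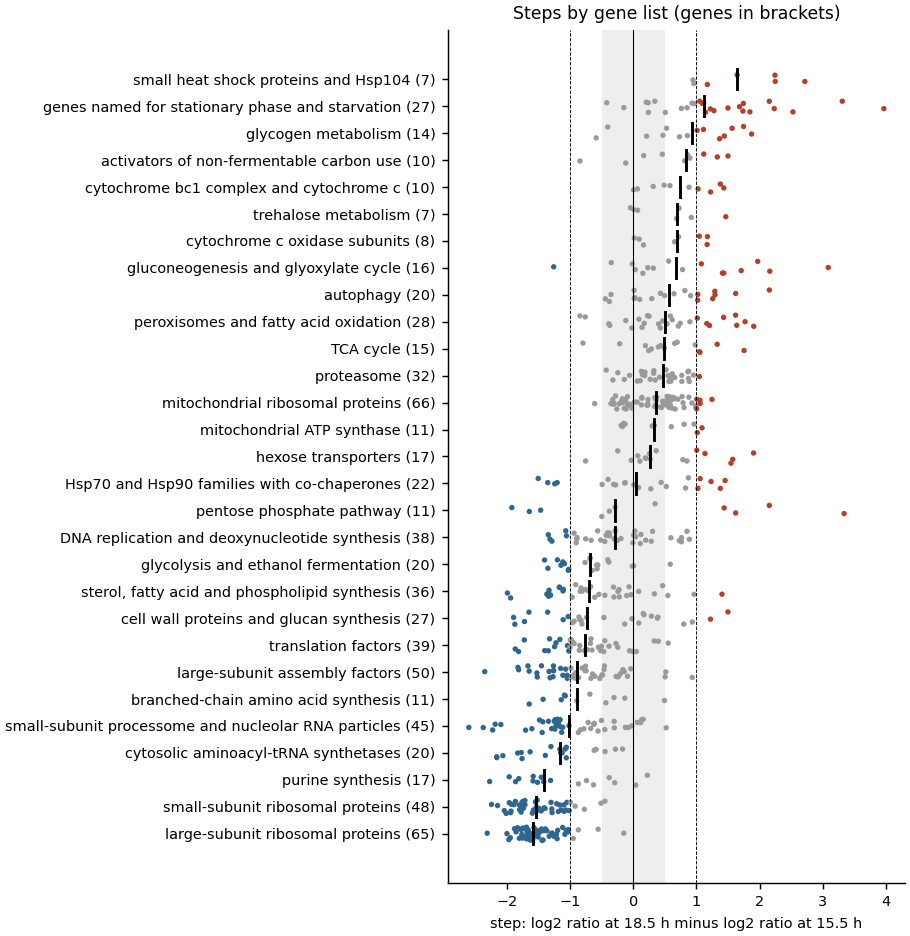
Each point is the step of 1 gene, grouped by gene list with the number of measured genes in brackets, and black bars mark list medians. Dashed lines mark a 2-fold step, red and blue points lie past it, and the grey band spans the 25th to the 75th percentile of all genes, from -0.49 to 0.50. The medians run from 1.64 for the list of small heat shock proteins and Hsp104 to -1.58 for large-subunit ribosomal proteins.

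The list median of purine synthesis genes went from near the reference to below it, and 4 of the 17 genes had stood at least 2-fold above it at 15.5 h. The pathway builds AMP and GMP from ribose phosphate, and 10 of its 17 measured genes were at least 2-fold lower and 0 higher, and the list median went from 0.15 to -1.22. ADE4 (YMR300C), the enzyme of the first committed reaction, had -0.10, 0.12, 0.14, 0.36, 0.94, -1.34 and -1.70 over the 7 arrays. Its value was thus highest at 15.5 h and below the reference 1 array later. ADE13, adenylosuccinate lyase, went from 1.18 to -0.63, ADE1 from 1.19 to -0.40 and ADE2 from 1.34 to -0.11. The IMP dehydrogenase genes IMD2 and IMD3, which lead to GMP, had not been above the reference, and they went from -0.08 to -2.04 and from -0.13 to -1.99. These IMD genes are close copies and may share signal. ADE16 at 0.22 and PRS2 at 0.04 were the members with a step above 0, and ADE16 was at -0.12 under quantile normalization.

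One-carbon metabolism, which supplies purine synthesis with formyl groups, held a gene with one of the lowest steps. SHM2 (YLR058C), the cytosolic serine hydroxymethyltransferase, had 0.14, 0.32, 0.74, 0.42, 1.5, -1.11 and -1.14 over the 7 arrays, a step of -2.60, which UTP10 equalled at this precision. The glycine cleavage genes GCV1 and GCV3 went from 2.38 to 0.44 and from 1.74 to 0.42, and MTD1, a methylenetetrahydrofolate dehydrogenase, from 1.07 to -0.07. GCV1 and GCV3 came back to within 2-fold of the reference at 18.5 h, whereas SHM2 went below it. Of the 15 genes of this list 5 were at least 2-fold lower and 0 higher, the median step was -0.60, and SER3 had a step of 0.86.

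In all 14 genes stood at least 2-fold above the reference at 15.5 h and were at least 2-fold lower at 18.5 h. Beside SHM2, GCV1, GCV3, MTD1, ADE1, ADE2, ADE13 and YHR020W they were ADE12, HIS4, FUI1, CWP1, WSC4 and TUL1, the last of these named after their values were seen. ADE12 is adenylosuccinate synthase, HIS4 an enzyme of histidine synthesis and FUI1 the uridine transporter. HIS4 went from 1.33 to -0.31. WSC4, a cell wall sensor, went from 2.08 to 0.83, and CWP1, a cell wall mannoprotein, from 1.69 to 0.34. FUI1 and TUL1 were back at 0.99 and 1.26 at 20.5 h, while the purine genes among the 14 stayed below the reference.

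**Figure D3:**
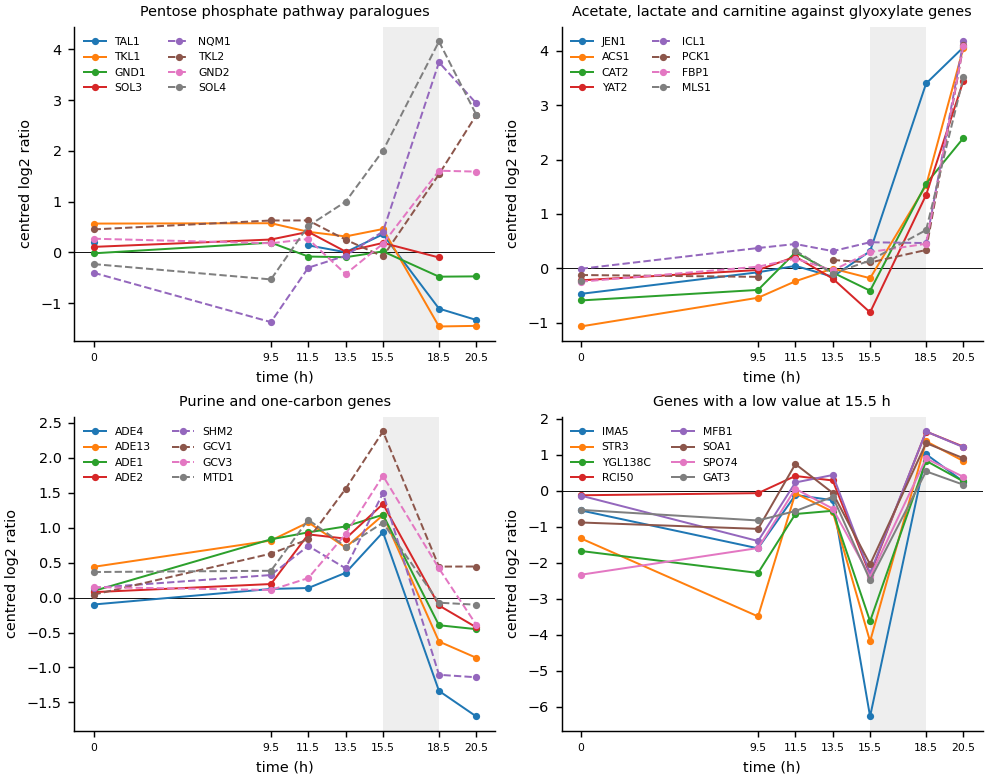
Centred log2 ratio to the reference against time in h for 4 sets of genes, with the interval from 15.5 to 18.5 h shaded and 1 array a point. Lines are broken where an array has no value. TAL1 and TKL1 part from NQM1, TKL2 and GND2 within the shaded interval while SOL4 already lies above them at 15.5 h, JEN1 and ACS1 leave the reference 1 array before ICL1 and PCK1, the purine genes, SHM2, GCV1 and GCV3 are highest at 15.5 h, and the last panel shows 8 genes whose value was low at 15.5 h.

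Amino acid and nitrogen genes were lower in part. Glutamate, glutamine and aspartate metabolism had 6 of 14 genes at least 2-fold lower and 0 higher. GLN1, glutamine synthetase, went from 0.76 to -1.34 and stood at -0.09 at 20.5 h, and GDH1, the main ammonia-assimilating glutamate dehydrogenase, went from 0.71 to -0.94. Branched-chain amino acid synthesis had 5 of 11 genes lower and 0 higher with a median step of -0.89, led by ILV5 from -0.97 to -2.62. In the list of other amino acid pathways 7 of 39 were lower and 2 higher. LYS21, the first enzyme of lysine synthesis, had a step of -2.16, while LYS1 and LYS4 of the same pathway had steps of 1.43 and 1.17. LYS1 moved from -0.71 to 0.72, so the lysine genes named here did not move one way. Sulfur assimilation and methionine synthesis had 3 of 28 lower, close to the 9.02% over all genes, and 1 higher, STR3. SAM1, an S-adenosylmethionine synthetase gene, went from -0.81 to -2.80. Pyrimidine synthesis had 4 of 11 lower and 1 higher, the paralogue URA10 with a step of 1.18 against URA5 at -1.06.

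Membrane and wall genes were also lower in part. Of 36 genes for sterol, fatty acid and phospholipid synthesis 11 were at least 2-fold lower and 1 higher, with a median step of -0.69. ERG3 and ERG2, late enzymes of ergosterol synthesis, had steps of -1.99 and -1.94. INO1, inositol phosphate synthase, was the 1 higher gene, from -0.27 to 1.13. Of 27 wall genes 7 were lower, or 25.9% against 9.02% over all genes, and 2 higher, or 7.41% against 9.82%. FKS1, the main glucan synthase, went from 0.54 to -1.35, SCW10 had a step of -1.87 and the glucanosyltransferase gene GAS1 one of -1.72, while the stress-responsive mannoprotein genes SPI1 and TIP1 had steps of 1.5 and 1.22. Under quantile normalization SPI1 had a step of -0.06. Phosphate uptake had 6 of 21 lower and 1 higher, with the high-affinity transporter gene PHO84 from -0.44 to -2.46 and the sodium-coupled transporter gene PHO89 from -1.05 to -0.02.

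Cell cycle genes did not move as a block. Of 16 cyclins and their inhibitors 4 were at least 2-fold lower and 1 higher, and the list's median step was 0.12. CLN1 (YMR199W), a G1 cyclin, went from 0.12 to -2.13 and stood at -0.81 at 20.5 h. CLB1, a mitotic cyclin, had a step of -1.81, FAR1, the pheromone-responsive cyclin kinase inhibitor, -1.79, and PCL1 -1.46. CLB5, an S-phase cyclin, had a step of 1.09 and SIC1, the inhibitor of its kinase, 0.95. CLN2, the paralogue of CLN1, had a step of 0.23. Among 38 genes of DNA replication 5 were lower, or 13.2% against 9.02% over all genes, and 0 higher. The ribonucleotide reductase genes RNR1 at -1.34 and RNR3 at -1.32 led them. Of 10 histone genes 1 was lower, near the share over all genes, namely HHF1 at -1.07, and the median step was -0.54.

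Hexose transporter genes that already stood above the reference had small steps. Of the high-affinity hexose transporter genes, HXT7, HXT6 and HXT4 stood at 1.97, 1.82 and 1.62 at 15.5 h. At 18.5 h they stood at 2.17, 2.09 and 1.73, and quantile normalization turned the step of HXT7 from 0.20 to -1.09. HXT2 was below the reference and went the other way, from -0.60 to -1.36, the lowest step of the list. The low-affinity transporter genes HXT1 and HXT3 had steps of -0.03 and -0.25, the latter 0.00 in the values as deposited. HXT5, a transporter known from slow-growing and starved cells, went from -0.28 to 1.63 and to 3.31 at 20.5 h. HXT15, HXT10, HXT13 and HXT16 had steps of 1.57, 1.54, 1.13 and 1.0. In all 5 of 17 transporter genes were at least 2-fold higher, against 9.82% of all genes, and 0 lower. These genes are close relatives, and the spots of HXT6 and HXT7, or of HXT13, HXT15 and HXT16, may share signal.

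Glycolysis and ethanol fermentation had 8 of 20 genes at least 2-fold lower and 0 higher, and the median went from 0.38 to -0.27. PFK2 and PFK1, the subunits of phosphofructokinase, had steps of -1.40 and -1.20, and CDC19, the main pyruvate kinase, went from -0.14 to -1.49. The pyruvate decarboxylase genes PDC5, PDC1 and PDC6 had steps of -1.14, -1.09 and -1.02, ENO2 one of -1.11 and PGI1 one of -1.03. The glyceraldehyde phosphate dehydrogenase genes TDH1, TDH2 and TDH3, near-identical copies, had steps between -0.58 and -0.56. HXK1, the hexokinase induced without glucose, went from 1.81 to 2.39, and its paralogue HXK2, which also acts in glucose repression, from 0.38 to -0.27. GLK1, glucokinase, went from 2.20 to 1.80. ENO1 and PYK2, paralogues of ENO2 and CDC19, had steps of 0.01 and -0.01. HXK1 did not keep its level and stood at 0.64 at 20.5 h, and its step was -0.70 under quantile normalization.

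The pentose phosphate pathway divided between paralogues. This pathway makes NADPH and ribose phosphate from glucose phosphate, and 4 of its 11 genes were at least 2-fold higher and 3 at least 2-fold lower. TAL1, the main transaldolase, went from 0.36 to -1.11, whereas its paralogue NQM1 (YGR043C) went from 0.41 to 3.75. Over the 7 arrays NQM1 had -0.40, -1.37, -0.30, -0.06, 0.41, 3.75 and 2.94. The steps of TAL1 and NQM1 differed by 4.80, or 27.8-fold. TKL1, the main transketolase, went from 0.46 to -1.46 and TKL2 from -0.08 to 1.54, so that their steps differed by 3.54, or 11.6-fold.

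The lactonase and dehydrogenase of the pathway's oxidative branch showed the same order with smaller gaps. SOL3 had a step of -0.29 and SOL4 went from 2.0 to 4.16, 5.42-fold apart. GND1, the main phosphogluconate dehydrogenase, had a step of -0.50 and GND2 went from 0.17 to 1.61, 3.82-fold apart. In each of the 4 pairs the step was above 0 for the minor paralogue and below 0 for the main one. RKI1, ribose phosphate isomerase, has no paralogue in the list and went from -0.67 to -2.31 and back to 0.01 at 20.5 h. ZWF1, glucose phosphate dehydrogenase, had a step of 0.35 and RPE1 one of -0.38. These paralogues were set side by side with results of these arrays already known.

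The same comparison was made for 31 pairs of paralogues or opposing enzymes, of which 30 were measured. In 15 pairs the steps differed by at least 1, and in 14 of these the gene listed second was the higher. The pairs were chosen with earlier results of these data known, and CDC19 and HXK2 each stand in more than 1 pair. The count of 14 therefore describes the listing and supports nothing else. The main form was listed first in most pairs, but the low-oxygen forms COX5B, CYC7, AAC3 and ANB1 were listed first in theirs. In 3 pairs both genes were past 2-fold in opposite directions, namely TAL1 with NQM1, TKL1 with TKL2 and the acetyl-CoA synthetase genes ACS2 and ACS1, at -1.34 and 1.71. PGM1 and PGM2, phosphoglucomutases, had steps of -0.40 and 1.36, and the cytosolic Hsp70 genes SSA1 and SSA3 had -0.28 and 0.83. The pair in the other order was that of the ADP/ATP carriers, where the anaerobic form AAC3, listed first, had a step of 0.78 and the main form PET9 one of -0.46. Glycogen synthase genes GSY1 and GSY2 differed by 1.07-fold and TDH3 and TDH1 by 1.0-fold.

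**Figure D4:**
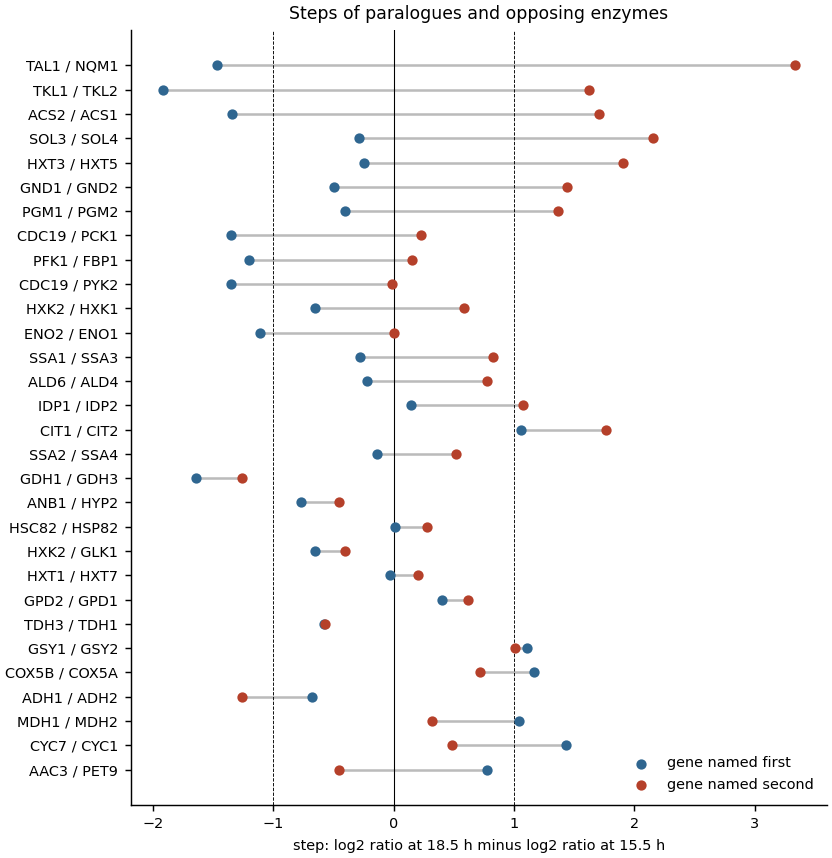
Steps of 30 pairs of paralogues or opposing enzymes, with the gene named first in blue and the gene named second in red, on the log2 scale, ordered by the gap. Dashed lines mark a 2-fold step. The gap is 4.80 for TAL1 and NQM1 at the top and -1.23 for AAC3 and PET9 at the bottom.

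Genes for using ethanol, acetate and other poor carbon sources differed in how much of their increase fell in the step and how much after it. Of 16 measured genes 7 were at least 2-fold higher at 18.5 h and 1 lower, and the list's median went from 0.24 to 1.16 and, at 20.5 h, to 3.48. JEN1 (YKL217W), the lactate and pyruvate transporter, had -0.47, -0.07, 0.05, -0.15, 0.31, 3.40 and 4.06 over the 7 arrays, so most of its distance from the reference was covered in the step. YAT2 and CAT2, carnitine acetyltransferases, went from -0.81 to 1.35 and from -0.41 to 1.56, and on to 3.45 and 2.40 at 20.5 h. The mitochondrial carriers SFC1, for succinate and fumarate, and CRC1, for carnitine, had steps of 1.43 and 1.41, and ACS1 one of 1.71. IDP2, the cytosolic isocitrate dehydrogenase, had a step of 1.08. ACS1, SFC1 and IDP2 were then higher again, from 1.52, 1.62 and 1.44 at 18.5 h to 4.05, 4.06 and 3.58 at 20.5 h, so the larger part of their increase came after the step.

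The enzymes at the centre of the glyoxylate cycle and of gluconeogenesis stayed near the reference at 18.5 h. ICL1, isocitrate lyase, went from 0.48 to 0.46 and then stood at 4.17 at 20.5 h. PCK1, phosphoenolpyruvate carboxykinase, went from 0.11 to 0.34 and then to 4.10, and FBP1, fructose bisphosphatase, from 0.30 to 0.45 and then to 4.10. MLS1, malate synthase, had a step of 0.56 before it reached 3.51. With 0.2 g/L glucose left, none of ICL1, PCK1, FBP1 and MLS1 was 2-fold above the reference, and with 0 g/L all 4 were more than 3 above it on the log2 scale. PYC1, pyruvate carboxylase, went from -0.56 to -0.91 and then to 2.04, and its step was 0.15 under quantile normalization. ADH2, which oxidises ethanol, had a step of -1.26, but its near-identical copy ADH1, at -0.68, may share its signal.

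Respiratory genes had begun to move earlier and moved on by smaller amounts. The tricarboxylic acid (TCA) cycle list had medians of 1.08, 1.80 and 2.30 on the last 3 arrays. Of its 15 genes 4 were at least 2-fold higher, or 26.7% against 9.82% over all genes, and 0 lower. KGD2, of the ketoglutarate dehydrogenase complex, went from 0.19 to 1.94, SDH4, a succinate dehydrogenase subunit, from 1.41 to 2.73, and MDH1, malate dehydrogenase, from 1.78 to 2.82. LSC1, a succinyl-CoA ligase subunit, had a step of -0.80 and LPD1 one of -0.21, or 0.04 for LPD1 in the values as deposited. All 10 genes of the bc1 complex and cytochrome c had a step above 0, and 4 were at least 2-fold higher, namely CYC7 at 1.43, QCR6 at 1.38, QCR7 at 1.22 and COR1 at 1.03. All 8 cytochrome oxidase genes also had a step above 0, with COX13 at 1.17, COX5B at 1.17 and COX6 at 1.05 past 2-fold. Of 11 genes of the mitochondrial ATP synthase 2 were higher, or 18.2% against 9.82% over all genes. These were ATP14 at 1.09 and ATP7 at 1.01.

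The direction of these respiratory lists depended on how the arrays were put on one scale. Quantile normalization gave median steps of -0.36 for the TCA cycle, -0.28 for cytochrome oxidase, -0.20 for the ATP synthase and 0.05 for the bc1 list, against 0.49, 0.68, 0.33 and 0.73 with centring. That setting equalises the spread of the arrays, which was 0.52 and 0.92, so it widens the 15.5 h values and narrows those of 18.5 h. CIT1, citrate synthase, then had a step of -0.16 in place of 1.05, MDH1 one of -0.36 and COX5B one of -0.28. COX5B, the form of cytochrome oxidase subunit V known from low oxygen, had 1.37, 1.91, 3.07 and 1.38 on the last 4 arrays. Its aerobic counterpart COX5A went from 0.94 to 1.65 and on to 2.50, and its step was -0.01 under quantile normalization.

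Mitochondrial translation and import had smaller median steps than the bc1 and cytochrome oxidase lists, though translation was near the 0.33 of the ATP synthase. Of 66 mitochondrial ribosomal protein genes 5 were at least 2-fold higher and 0 lower, below the 9.82% over all genes, yet 46 had a step above 0 and the median step was 0.36, or -0.03 under quantile normalization. RSM18 at 1.25, RSM28 at 1.06 and MRPL36 at 1.05 led them. The list's median was 0.38 before the step, 0.77 after it and 0.34 on the last array. For protein import 0 of 21 genes were past 2-fold either way, with a median step of -0.11. Among 26 metabolite carriers 5 were higher, or 19.2% against 9.82% over all genes, and 1 lower, or 3.85% against 9.02%. MPC3 had -0.33, -0.57, -0.72, 0.05, -0.04, 3.39 and 2.91 over the 7 arrays, so it lay below or near the reference on 5 arrays and high on the last pair. MPC1, which encodes the subunit that partners Mpc3 and was named after its value was seen, had a step of 0.25. LEU5 at 1.85 and MRS4 at 1.25 were also higher, and the citrate carrier gene YHM2 was lower at -1.04.

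Stress proteins gave the highest list median with centring, 1.64, but one of 0.23 under quantile normalization. The list named small heat shock proteins and Hsp104 held HSP12, HSP26, HSP30, HSP31, HSP42, HSP78 and HSP104. Its name is loose, since HSP30, HSP31 and HSP78 belong to other protein families. All 7 genes had a step above 0 and 5 were at least 2-fold higher. The median went from 1.35 to 3.5. HSP31 went from 0.23 to 2.94, HSP30, a membrane stress protein, from 1.45 to 3.69, and HSP26, a small chaperone, from 1.94 to 3.59. HSP42 had 0.18, 0.25, 0.32, 1.18, 1.33, 3.57 and 3.49 over the 7 arrays, with gaps before 13.5 h and after 15.5 h and little change between. HSP12 and HSP104 were short of 2-fold, at 0.96 and 0.94, and HSP12 had already stood at 2.54 at 15.5 h. The larger chaperone families went both ways, with 5 of 22 genes higher and 4 lower. That was 22.7% higher and 18.2% lower, against 9.82% and 9.02% over all genes. CPR6 and SBA1, partners of Hsp90, had steps of 1.45 and 1.38 and SSE2 one of 1.23. ZUO1, SSZ1 and SSB2, chaperones that work on the ribosome, had steps of -1.5, -1.20 and -1.24, and CPR7 one of -1.35.

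Antioxidant genes were higher in part. Of 23 genes 6 were at least 2-fold higher, or 26.1% against 9.82% over all genes, and 0 lower. The median step was 0.29. GPX1, a glutathione peroxidase, went from 0.91 to 3.63, PRX1, the mitochondrial peroxiredoxin, from 1.18 to 3.58, and CTT1, the cytosolic catalase, from 1.43 to 3.72. GRX1, a glutaredoxin, CTA1, the peroxisomal catalase, and TSA2, a peroxiredoxin, had steps of 1.75, 1.64 and 1.20. The glutathione synthesis gene GSH2, at -0.63, and the thioredoxin gene TRX1, at -0.55, were the lowest, both short of 2-fold.

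Genes of the reserve carbohydrate glycogen were also higher. Of 14 glycogen genes 7 were at least 2-fold higher and 0 lower, and the median went from 0.76 to 2.04. GAC1 and GLC8, regulators of the phosphatase that activates glycogen synthase, had steps of 1.87 and 1.74. GLC3, the branching enzyme, went from 1.09 to 2.65, GLG1, which primes the chain, from 0.93 to 2.37, and GSY1 from 2.19 to 3.30. GPH1, which breaks glycogen down, had a step of -0.59 and PGM1 one of -0.40. The other 12 genes had steps above 0, among them the debranching enzyme gene GDB1. Under quantile normalization the list's median step was 0.01, with PGM2, GSY1 and GSY2 at -0.20, -0.42 and -0.47. For trehalose 1 of 7 genes was past 2-fold, NTH2, a neutral trehalase paralogue, from -0.37 to 1.09, and NTH2 had stood at 0.89 at 13.5 h. The list's median step was 0.69, or -0.23 under quantile normalization.

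Genes named for stationary phase and starvation had the next highest list median with centring, 1.11, and one of 0.51 under quantile normalization, where it was above that of the heat shock list. Of 27 measured genes 16 were at least 2-fold higher and 0 lower, and the median went from 0.43 to 1.95. SPG1 (YGR236C) had -0.07, -0.42, -0.46, -0.29, -0.50, 3.47 and 3.12 over the 7 arrays, so it was under the reference on the first 5 arrays and high on both late ones. RTN2 (YDL204W), a reticulon protein of the endoplasmic reticulum, went from 0.71 to 4.02, ALD2, a cytosolic aldehyde dehydrogenase, from 1.07 to 3.59, and SPG4 from 0.01 to 2.24. RTC3 went from 1.22 to 2.90 and stood at 1.20 at 20.5 h. The polyubiquitin gene UBI4 was the lowest of the list at -0.42. Among genes of the eisosome list YNL194C, a membrane protein of the Sur7 family, had a step of 3.08, from 0.85 to 3.93.

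Autophagy, vacuolar and peroxisomal genes were higher in part. Of 20 autophagy genes 7 were at least 2-fold higher, against 9.82% of all genes, and 0 lower, with a median step of 0.57. ATG3 and ATG8, which belong to the conjugation system of the autophagosome membrane, had steps of 2.15 and 1.29, and ATG15, the vacuolar lipase, 1.62. Of 13 vacuolar hydrolases and their inhibitors 3 were higher, the inhibitors PBI2 at 1.86 and TFS1 at 1.36 and the protease gene PRB1 at 1.39. Of 32 proteasome genes 27 had a step above 0 and 1 was past 2-fold, RPT2 at 1.05, a smaller share than over all genes. Of 28 peroxisomal genes 8 were higher and 0 lower. PEX7, an import receptor, went from -1.07 to 0.83, CIT2, the peroxisomal citrate synthase, from -0.83 to 0.94, and POX1, the first enzyme of fatty acid oxidation, from -1.15 to 0.47. PEX7 and POX1 began the step at least 2-fold below the reference and ended it within 2-fold. At 13.5 h they had stood at -0.51 and 0.02, so POX1 ended within 2-fold of its 13.5 h value and PEX7 did not.

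Regulators of carbon metabolism and stress moved by gene. HAP4, whose protein activates respiratory genes as part of the Hap complex, went from 1.25 to 2.75 and on to 3.42. ERT1 and GSM1, other activators of non-fermentable carbon use, had steps of 1.33 and 1.11. With HAP4 they were the 3 of 10 genes in their list at least 2-fold higher, against 9.82% of all genes, and 0 were lower. ERT1 went from -0.99 to 0.34, which was within 2-fold of its -0.42 at 13.5 h, while GSM1 went from 0.90 to 2.01. CAT8, the activator of gluconeogenic genes, had a step of 0.17 and ADR1 one of 0.86. Of 18 stress regulators 4 were higher and 0 lower, namely NRG1 at 2.85, YAP6 at 2.25, XBP1 at 2.13 and CIN5 at 1.56. YAP6 had a low value at 15.5 h, as described below. XBP1, a repressor known from starved cells, went from -0.17 to 1.96. MSN2 stood at -1.06 and -2.05, just short of 2-fold, and MSN4 had a step of -0.26. In the Ras and protein kinase A pathway 2 of 16 genes were higher, or 12.5% against 9.82% over all genes. These were GPA2 at 1.69 and the kinase gene YAK1 at 1.46, and RAS1 was lower at -1.14. Among 24 genes of glucose sensing and repression 1 was past 2-fold, against 18.8% of all genes. It was the repressor gene MIG3, from -0.91 to 0.68.

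The very largest increases rested in part on low values of the 15.5 h array. Of the 20 largest steps among genes with a value on all 7 arrays, 11 came from genes at or below -1.5 at 15.5 h. In 16 of the 530 higher genes the 15.5 h value was at or below -1.5 and at least 2-fold under the 13.5 h value, and 15 of these 16 were among the 83 genes at least 4-fold higher. IMA5 (YJL216C), an isomaltase, had -0.54, -1.60, -0.12, -0.26, -6.28, 1.02 and 0.26 over the 7 arrays, so its 157-fold step came mainly from 1 low value. STR3 (YGL184C), a cystathionine lyase, had -1.32, -3.49, -0.07, -0.58, -4.19, 1.38 and 0.83. Its 9.5 h value was low as well, and YGL138C, at -3.63 and 0.83 across the step, had been at -1.67 at 0 h. SPO74 went from -2.39 to 0.90 and had been at -2.33 at 0 h. The 16 genes ranged from -0.70 to 0.47 at 13.5 h, from -6.28 to -1.61 at 15.5 h and from -0.17 to 1.65 at 18.5 h, with a median of 0.36 at 20.5 h. At 18.5 h 8 of them were at least 2-fold above their 13.5 h value, among them RCI50, MFB1 and SOA1. Whether these low values lie in the culture or in the spots was not tested, and no signal levels were used here.

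Other large increases did not rest on the 15.5 h array alone. NCE103 (YNL036W), carbonic anhydrase, had -0.01, -1.16, -2.32, -2.04, -2.44, 1.11 and 1.28, so it was low on 3 neighbouring arrays before the step. MOH1 (YBL049W) went from -0.60 to 2.77 and FUN19 (YAL034C) from -0.97 to 2.15, and both were as high or higher at 20.5 h, at 3.01 and 2.43. YMR114C went from 0.37 to 4.07 and stood at 1.49 at 20.5 h.

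How far the step lasted could be read from the next array. Among the genes that went back furthest were IRC3, a mitochondrial helicase, at -0.45, 2.0 and 0.13 on the last 3 arrays, and OMS1, a mitochondrial methyltransferase-like protein, at -0.64, 2.07 and 0.49. On the lower side were PMA2 at -0.89, -3.20 and -0.78, UTP22 of the processome at 0.27, -1.95 and 0.11, and FLC1 at -0.12, -1.75 and 0.52. PMA2 is a proton pump gene close in sequence to PMA1, with which it may share signal. Over the 522 higher genes with a value at 20.5 h, 81 had lost a share of at least 0.5 of their step and 18 had moved on by at least 2-fold, and the median difference from 18.5 h was -0.27. Over the 479 lower genes 86 had lost a share of at least 0.5 of it and 8 had moved on by at least 2-fold, and the median difference was 0.08. These differences use the 18.5 h array again, so an error of that array alone would also appear in them with the opposite sign.

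A pair of arrays that shares neither array with the step, 20.5 h against 13.5 h, was set beside it. Over all genes 8.91% were at least 2-fold higher and 9.11% lower in that pair. Of the 510 higher genes of the step with both values 223, or 43.7%, were at least 2-fold higher in it and 21 had a difference below 0. Of the 475 lower genes 297, or 62.5%, were at least 2-fold lower and 31 had a difference above 0. By list, 60 of 64 large-subunit and 46 of 47 small-subunit ribosomal protein genes were lower in it, as were 13 of 19 aminoacyl-tRNA synthetase genes and 11 of 17 purine genes. All 7 genes of the small heat shock and Hsp104 list and 15 of 27 stationary phase genes were higher. Other lists differed between the pairs. The TCA cycle had 11 of 15 genes higher in place of 4, and the gluconeogenic and glyoxylate list 14 of 16 in place of 7. The pair of 20.5 h and 13.5 h spans the step and the intervals on either side of it. The TCA median was 0.72 at 13.5 h and 1.08 at 15.5 h. The gluconeogenic median was 1.16 at 18.5 h and 3.48 at 20.5 h. Glutamate, glutamine and aspartate metabolism, with 6 lower and 0 higher in the step, had 2 lower and 4 higher of 14 in the other pair. Branched-chain amino acid synthesis had 2 of 11 lower in place of 5, autophagy 4 of 20 higher in place of 7, and mitochondrial ribosomal proteins 0 of 62 higher in place of 5. The reference RNA is common to all arrays.

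**Figure D5:**
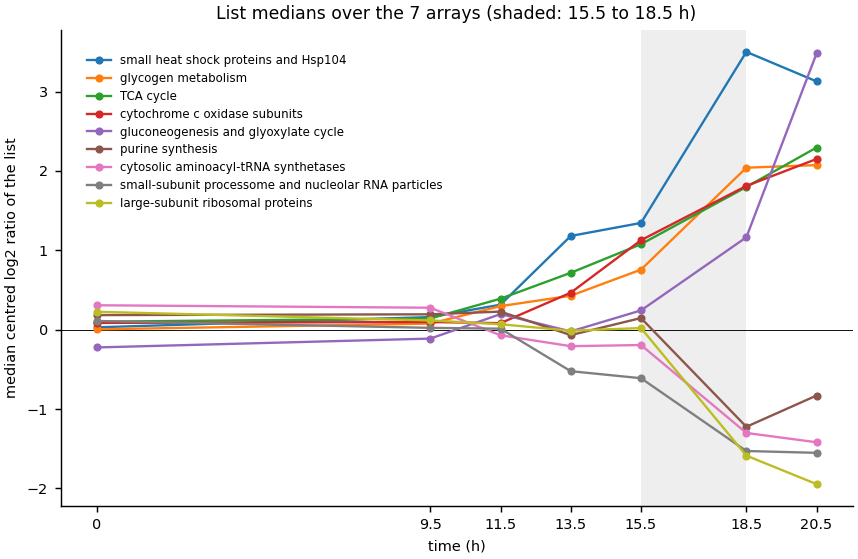
Median centred log2 ratio to the reference of 9 gene lists against time in h, with the interval from 15.5 to 18.5 h shaded and 1 array a point. Large-subunit ribosomal proteins go from 0.02 to -1.59 in the shaded interval. The list of small heat shock proteins and Hsp104 goes from 1.35 to 3.5 in it, and the gluconeogenic list reaches 3.48 after it.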

How the data were processed

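Total RNA of 7 time points was compared with a common reference on arrays with 2 channels, and the software named in the labels is ScanAlyze version 2.41. The deposited values are log ratios made by the authors, and they are taken as log2, which is likely but not certain because the base is not stated. Of background correction, dye normalization and the filter on spots the sources used here say nothing. The base was read from the values. Ratios of small whole numbers gave 66 values at 57 places for log2 where the neighbouring places held 34.8, 114 against 101.4 for the natural log and 650 against 669.7 for log10.

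The platform annotation gave 1 symbol to 5548 of 6400 probes, several to 0 and none to 852. A RefSeq table was matched to the 5548 through their Entrez IDs and changed 0 symbols. No coordinates are given, since the sources name no genome build. From each array its median over measured probes was subtracted, values of spots for the same gene were averaged, and 15.5 h was subtracted from 18.5 h with Python 3.11.15, pandas 2.3.3 and numpy 2.4.6. The figures were drawn with matplotlib 3.10.9. The calculation was tested on simulated data. A gene was counted as higher or lower at a step of at least 1 on the log2 scale.

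The 56 gene lists, the 31 pairs and the genes within them were chosen with earlier results of these data known. The genes named were drawn from the 15 largest steps in each direction among genes on all 7 arrays, up to 4 members of a list with its median and 2 against it, both genes of each pair, the 5 genes in each direction that went back furthest at 20.5 h, and the 5 in each direction with the largest step from within 0.25 of the reference. Alternatives were the values as deposited, centring over genes on both arrays or in runs of 40 probe IDs, quantile normalization, the first spot of a gene, genes on all 7 arrays, a 3-fold limit, and means with the neighbouring array on either side. The correlation between arrays over probes was never lower than -0.28.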

Additional observations from a re-analysis of the deposited data

Results flagged for a closer look

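Probes without a gene name also moved. Of 783 such probes with a value on both arrays 41 were at least 2-fold higher at 18.5 h than at 15.5 h and 81 at least 2-fold lower, 122 in all or 15.6%. On the 0 h array, whose channels carry one label, 7 of 773 such probes lay at least 2-fold from the reference. These probes were used in centring and in no other result.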

How the results depend on the processing

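The counts of genes past 2-fold were 530 higher and 487 lower. They were 876 and 287 in the values as deposited and 175 and 133 at 3-fold. Requiring 2-fold over both 13.5 h and 15.5 h, a setting chosen after seeing the data, gave 312 higher genes and 384 lower, the latter within 1.5 times. The other settings stayed within 1.5 times, from 443 to 532 higher and from 331 to 542 lower, including the 458 and 468 of 20.5 h against 13.5 h, also chosen after seeing the data. The split had 57.2% higher under quantile normalization and 46.9% with centring over genes on both arrays.

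Quantile normalization changed the most. It gave median steps of -0.36 for the TCA cycle, 0.051 for the bc1 complex, -0.28 for cytochrome oxidase and 0.008 for glycogen. The medians were 0.23 for the small heat shock and Hsp104 list, 0.51 for stationary phase genes, -0.17 for the small-subunit processome and -0.27 for large-subunit assembly. Among 372 named genes it moved 112 by more than 1 SD between spots and turned 7 that were past 2-fold: CIT1 (-0.16), MDH1 (-0.36), COX5B (-0.28), SPI1 (-0.056), PGM2 (-0.20), GSY1 (-0.42) and GSY2 (-0.47). Genes short of 2-fold such as HXK1 and HXT7 turned as well, and 11 of 56 list medians moved. By construction it equalises the spread of the arrays, which was 0.52 at 15.5 h and 0.92 at 18.5 h. Taking the mean of 18.5 h and 20.5 h raised the gluconeogenic list to 1.97 and reversed NOP2 (0.055). The values as deposited add 0.249 to every step. Centring over genes on both arrays also shifts every step equally, with the median step over genes going from -0.002 to -0.042. Neither shift can reach 0.52, the SD between spots of a gene, so neither tests the list medians against it. The shift of 0.249 turns small negative median steps positive, such as -0.11 for protein import, -0.15 for glucose sensing and -0.22 for secretory genes. All 56 medians moved by less than 0.52 with centring in runs of probe IDs and with the mean of 13.5 h and 15.5 h. The same held for the first spot, a setting that can change only the 75 genes with several spots.

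No paired analysis was possible because every time point is 1 array with 1 replicate number, and for the same reason no array was left out of a side. The median steps of the ribosomal protein, aminoacyl-tRNA synthetase, purine, small heat shock and stationary phase lists kept their sign in every setting listed here. The ratios carry no signal level, so dim spots were not set apart. Brightness limits what single genes show, to an extent that is unknown here.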

Other observations

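Further gene groups, 6 in all, were put together after the steps had been seen, so their counts describe these arrays and support nothing else. The GID ubiquitin ligase marks gluconeogenic enzymes such as fructose bisphosphatase for destruction when glucose returns. Of its 10 measured genes 5 were at least 2-fold higher at 18.5 h and 0 lower, and the median went from 0.09 to 1.03. GID10, a substrate receptor, went from -0.65 to 1.88, GID11 from 0.47 to 2.96, FYV10 from -0.12 to 1.77, UBC8, the conjugating enzyme, from -0.06 to 1.47, and RMD5 from -0.48 to 1.04. RMD5 had stood at 0.49 at 13.5 h, within 2-fold of its 18.5 h value. VID30 and GID7 had steps of -0.19 and -0.46. FBP1 and PCK1, whose proteins this ligase is known to mark, stood at 0.45 and 0.34 on the same array. Of 14 mitochondrial aminoacyl-tRNA synthetase genes 12 had a step above 0 and 2 were at least 2-fold higher, against 9.82% of all genes. These were MSW1 at 1.3 and SLM5 at 1.22. They stood at 0.13 and -0.20 at 13.5 h, within 2-fold of their 0.77 and 0.51 at 18.5 h. Of 7 galactose genes 2 were higher, GAL10 at 1.75 and GAL7 at 1.27, from -1.03 and -0.73 at 15.5 h. GAL10 and GAL7 had stood at 0.06 and -0.36 at 13.5 h, within 2-fold of their 0.72 and 0.53 at 18.5 h.

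Of 13 genes of the vacuolar proton ATPase 0 had a step above 0 and 3 were at least 2-fold lower, VMA11 at -1.27, VMA1 at -1.06 and VMA5 at -1.02, and the list median went from 0.41 to -0.15. Of 14 genes that attach sugars to proteins in the endoplasmic reticulum 6 were lower and 1 had a step above 0. The mannosyltransferase genes PMT2, PMT1 and PMT4 had steps of -1.88, -1.66 and -1.36. Of 45 genes of meiosis and sporulation 13 were higher, against 9.82% of all genes, and 1 lower, against 9.02%. Steps above 0 were found in 38, and the median went from -0.04 to 0.53. IME1, the master activator of meiosis, went from -1.38 to 0.33 and IME2 from -0.83 to 0.73, so both ended within 2-fold of the reference. In 2 of the 45, SPO74 and SPO77, the value at 15.5 h was at or below -1.5. Smaller dips occurred too. IME1, MND1, RED1 and SPO19 stood at -0.44, -0.17, -0.29 and -0.46 at 13.5 h and at -1.38, -1.26, -1.18 and -1.03 at 15.5 h. Their 18.5 h values were within 2-fold of those at 13.5 h. IME2 and PES4, at -0.56 and -0.51 at 13.5 h, were more than 2-fold above that at 18.5 h, at 0.73 and 0.78. Genes whose symbol is only a locus tag were 9.43% of the higher genes, 4.72% of the lower and 7.78% of all.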
